A study of Mus musculus with 2 samples.

Results

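Chemokines are small secreted proteins that steer leukocytes through tissue, and their receptors are G protein-coupled receptors on the cells that are steered. The ligands are named CC, CXC, XC or CX3C after the spacing of the cysteines near their amino terminus. A few atypical receptors bind chemokines and remove them without coupling to G proteins. In the lung, epithelium, macrophages and endothelium secrete chemokines, and neutrophils, monocytes and lymphocytes carry most of the receptors.

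Described here are the mouse genes of this family in messenger RNA from whole lung: every protein-coding gene of the GENCODE M21 annotation whose symbol is Ccl, Cxcl, Ccr, Cxcr or Ackr with a digit, and Xcl1, Xcr1, Cx3cl1 and Cx3cr1. The rule took 67 of the 37315 gene identifiers counted. The 6 identifiers of Ccl21 copies were summed, which left 62 genes, 39 for ligands and 23 for receptors. The rule uses symbols and gene type, and no measured value. Cxcl11, annotated as a polymorphic pseudogene, was not taken.

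The study compared lungs of C57BL/6 mice, an inbred strain, after exposure to PM2.5 with lungs of control mice. PM2.5 is fine airborne particulate matter. There was 1 PM2.5 library and 1 control library, titled PM-12W and C-12W. The labels do not explain 12W, and give no sex, age, dose, route or duration of exposure and no number of animals per library.

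The PM2.5 library held 57435027 counts and the control library 62788045. Both held abundant lung epithelial transcripts, with the surfactant gene Sftpc at 18643 CPM in the PM2.5 library and 14437 CPM in the control library, and the club cell gene Scgb1a1 at 29906 CPM in the PM2.5 library and 19383 CPM in the control library. CPM is the count of a gene for every 1000000 counts of a library size scaled by TMM, a trimmed mean of gene ratios. Markers of fat summed to 178 CPM in the PM2.5 library and 13.7 CPM in the control library, and those of red blood cells to 2708 CPM in the PM2.5 library and 5835 CPM in the control library, and their part in the ratios below was not tested. Of the 14518 genes whose mean reached 1 CPM, 7.25% were higher in the PM2.5 library by 2-fold or more with an exact 95% counting interval that excluded a ratio of 1, and 6.04% were lower by 2-fold or more. Over the protein-coding ones alone the shares were 5.89% and 6.14%. These 2 libraries have no replicates, so there is no test between conditions: a ratio is PM2.5 over control, its interval covers counting error only, and it describes the libraries. Fewer cells of a type and less RNA per cell cannot be told apart in whole tissue.

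Chemokine genes were more often higher than lower in the PM2.5 library. The neutrophil chemokine Cxcl1 had the highest ratio of the family, leaving aside single Ccl21 copies. Of the receptors whose mean reached 1 CPM, the neutrophil receptors Cxcr1 and Cxcr2 and the myeloid receptor Ccr1 were highest in ratio. Cxcl12 and the atypical receptor Ackr4 were the genes lower by more than 2-fold. Of the 57 genes with a count in either library, 21 (36.8%) were higher by 2-fold or more and 2 (3.51%) lower, against 12.8% and 4.75% of all 24315 genes with a count.

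A filter on level changes these counts. Of the 62 genes, 45 had a mean of at least 1 CPM, 12 were counted below it and 5 had no count in either library. Of the 45, 16 were higher and 2 lower, and with library totals in place of TMM 21 were higher and 0 lower. However, 9 of the 16 reached the filter only through the PM2.5 library, where they are high, so their count cannot be read as support. Of the 36 genes that reached 1 CPM in the control library, 7 (19.4%) were higher and 2 (5.56%) lower, against 5.19% and 6.44% of all genes that did. Of the 20 genes whose mean reached 10 CPM, 3 were higher and 2 lower, which is 15% and 10%, against 2.97% and 6.05% of all genes at that level.

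Level and length also went with the ratio across all genes. Of all genes at 1 to 10 CPM, 18.1% were higher by 2-fold or more and 6.03% lower. The shares were 14.4% and 2.71% of genes with exons under 2000 bases, and 25.3% and 3.62% of genes in both classes. The ligands that passed the filter had a median exon length of 1222 bases, the receptors 3127 bases and all genes tested 4337 bases. In the 1 to 10 CPM range 11 of 16 ligands and 2 of 9 receptors were higher by 2-fold or more. Of these, Ccl2, Ccl3, Ccl4, Ccl7, Ccl12, Ccl19, Cxcl9, Cxcr1 and Ccr3 reached the filter only through the PM2.5 library. The counts in this range therefore cannot be read as support. The median log2 ratio was 0.86 over the 26 ligands and 0.26 over the 19 receptors that passed, -0.09 over all genes tested, 0.29 over genes with exons under 2000 bases and 0.43 over those that were also at 1 to 10 CPM. Over members that reached 1 CPM in the control library it was 0.65 for 19 ligands and 0.17 for 17 receptors. The part of level and length in the ligands' ratios was not tested. For this reason the rank of a gene's ratio among genes of the same level, in 20 level classes of all tested genes, is given below where a gene passed the filter.

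**Figure D1:**
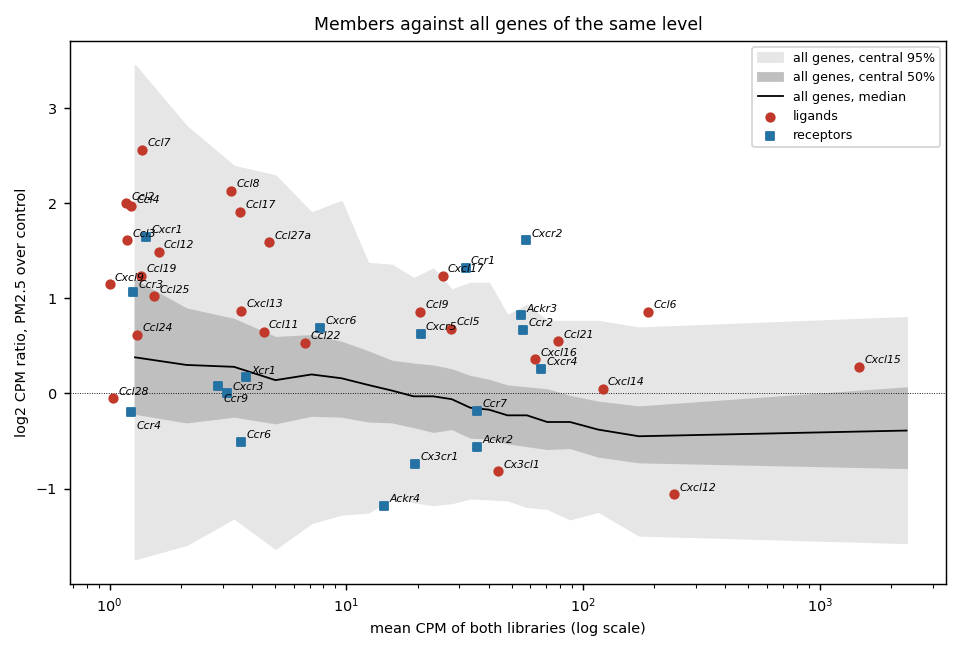
log2 CPM ratio, PM2.5 over control, against the mean CPM of both libraries (log scale) for 26 ligands and 18 receptors with a mean of at least 1 CPM. Bands and line show the central 95%, the central 50% and the median of all 14518 genes by level. Cxcr2, Ccr1 and Ccl6 lie above the central 95% and Ackr4 just below it, while most inflammatory CC ligands lie inside the wide band of low-level genes.

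The ligand with the highest ratio was Cxcl1, a CXC chemokine that recruits neutrophils through Cxcr2. It had 70 counts in the PM2.5 library and 5 in the control library, a ratio of 13 (5.33 to 41.4). Its mean of 0.606 CPM is below the filter. Cxcl10, a ligand of Cxcr3 induced by interferon, was also just below the filter with 101 counts in the PM2.5 library and 20 in the control library, a ratio of 4.71 (2.89 to 8.03). Cxcl10 shares 133 exon bases with Art3 on the opposite strand, which had 1794 counts in the PM2.5 library and 1392 in the control library. The setting of strand in the counting is not given in the sources used here, so reads of such antisense partners may be mixed.

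The 250 bases before the transcription start are shown for Cxcl1 and Cxcl10, the CXC ligands with the highest ratios, and for Cxcl12, the ligand with the lowest ratio. They were read from RefSeq on GRCm38.p6, and were chosen with the values known. The Cxcl1 window is chr5:90890995-90891244 on the plus strand, the Cxcl10 window chr5:92348890-92349139 on the minus strand and the Cxcl12 window chr6:117168285-117168534 on the plus strand. Capitals mark matches on either strand to GGG, any 5 bases and CC, a loose form of the site bound by the inflammatory factor NF-kappaB, and overlapping matches run together.
Cxcl1: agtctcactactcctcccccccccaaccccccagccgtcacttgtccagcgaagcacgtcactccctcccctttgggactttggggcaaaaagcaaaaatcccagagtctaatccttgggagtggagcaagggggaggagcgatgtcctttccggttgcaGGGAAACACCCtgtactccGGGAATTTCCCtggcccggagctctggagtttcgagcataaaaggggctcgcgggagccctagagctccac
Cxcl10: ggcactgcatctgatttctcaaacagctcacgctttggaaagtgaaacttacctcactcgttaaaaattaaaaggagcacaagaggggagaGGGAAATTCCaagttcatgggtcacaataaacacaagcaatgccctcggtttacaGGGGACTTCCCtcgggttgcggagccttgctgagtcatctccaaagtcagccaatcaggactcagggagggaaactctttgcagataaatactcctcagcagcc
Cxcl12: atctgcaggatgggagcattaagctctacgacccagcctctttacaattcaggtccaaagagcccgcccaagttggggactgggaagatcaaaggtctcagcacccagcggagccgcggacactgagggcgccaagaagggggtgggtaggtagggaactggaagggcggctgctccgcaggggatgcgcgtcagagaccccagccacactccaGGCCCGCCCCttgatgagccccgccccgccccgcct

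The Cxcl1 window holds 4 matches in 2 overlapping pairs, which begin 90, 89, 71 and 70 bases before the start. The Cxcl10 window holds 3, which begin 159, 104 and 103 bases before it, and the Cxcl12 window 1, at 36 bases, in a run rich in G and C. The letters are common: 45.8% of the 32851 mouse promoter windows of the same length in the table hold at least 1 match, and 28 of the 51 windows found for family members do. A match is a run of letters and not a measured binding site.

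The other neutrophil-recruiting CXC genes did not share the ratio of Cxcl1. Cxcl2, Cxcl3 and Cxcl5 had 41, 15 and 39 counts in the PM2.5 library and 24, 12 and 36 in the control library, with ratios of 1.59 (0.94 to 2.75), 1.17 (0.509 to 2.73) and 1.01 (0.625 to 1.63). The intervals of all 3 include 1, those for Cxcl2 and Cxcl3 reach past 2 and that for Cxcl5 ends below it. These 3 genes and Cxcl1 share the receptor Cxcr2 and lie in the same cluster on chromosome 5.

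The most abundant chemokine was Cxcl15, also called lungkine, a CXC chemokine made by mouse lung epithelium. It stood at 1440 TPM, which is the count per exon length scaled to a sum of 1000000, in the PM2.5 library and 1189 TPM in the control library. This was 59.6% of the ligand total in the PM2.5 library and 63.7% in the control library. Its ratio of 1.22 (1.21 to 1.23) ranked at the 84.3rd percentile among genes of its level. For every 100 counts of Sftpc, a gene of alveolar type 2 cells, there were 8.62 counts of Cxcl15 in the PM2.5 library and 9.13 in the control library. The direction depends on the marker. Sftpc had a ratio of 1.29, above that of Cxcl15. The other type 2 markers Sftpb, Sftpa1, Lamp3, Abca3, Etv5 and Napsa had ratios of 0.722, 0.94, 0.988, 0.516, 0.638 and 0.981. The part of type 2 cells in the value of Cxcl15 was not tested.

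Cxcl17, a CXC ligand of airway mucosa, had 2226 counts in the PM2.5 library and 877 in the control library. The ratio of 2.37 (2.19 to 2.56) made it the single ligand of at least 10 CPM that was 2-fold higher, at the 97th percentile of its level. The 5 club cell markers Scgb1a1, Scgb3a2, Cyp2f2, Cckar and Scgb3a1 had a summed level of 33628 CPM in the PM2.5 library and 21729 CPM in the control library, a ratio of 1.55. Whether airway epithelium plays a part in the value of Cxcl17 was not tested. Cxcl16, a membrane-bound ligand of Cxcr6, had a ratio of 1.29 (1.23 to 1.35), and Cxcl14, a chemokine of epithelium and stroma, 1.04, on 7683 counts in the PM2.5 library and 6902 in the control library. Cxcl16 shares 552 exon bases with the antisense gene Zmynd15.

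Cxcl12, the ligand of Cxcr4 that holds leukocytes and progenitors in place, had the lowest ratio of the ligands. It had 9753 counts in the PM2.5 library and 18920 in the control library, a ratio of 0.48 (0.469 to 0.492), at the 12.4th percentile of its level. With library totals the ratio was 0.564 and with upper-quartile scaling 0.529, neither of which reaches 2-fold. Cx3cl1, the membrane-bound ligand fractalkine, also had a ratio below 1, with 1974 counts in the PM2.5 library, 3254 in the control library and a ratio of 0.565 (0.534 to 0.598), at the 7.45th percentile.

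Endothelium expresses both Cxcl12 and Cx3cl1, and most of its markers were lower or had ratios below 1. The 6 capillary markers Cdh5, Kdr, Pecam1, Aplnr, Gpihbp1 and Ptprb summed to 2281 CPM in the PM2.5 library and 5560 CPM in the control library, a ratio of 0.41, with 4 of 6 at least 2-fold lower and Gpihbp1 at 0.972. Of the 5 venous markers that passed the filter, Vwf was at least 2-fold lower and Slc6a2 at least 2-fold higher. Per 100 counts of the junction gene Cdh5 there were 31.6 counts of Cxcl12 in the PM2.5 library and 21.6 in the control library, and for Cx3cl1 6.4 in the PM2.5 library and 3.71 in the control library. The direction depends on the marker. Per 100 counts of Pecam1, which differed less than Cdh5, there were 25.9 counts of Cxcl12 in the PM2.5 library and 31.2 in the control library, and for Cx3cl1 5.24 in the PM2.5 library and 5.37 in the control library. The part of the endothelial signal in their values was not tested.

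**Figure D2:**
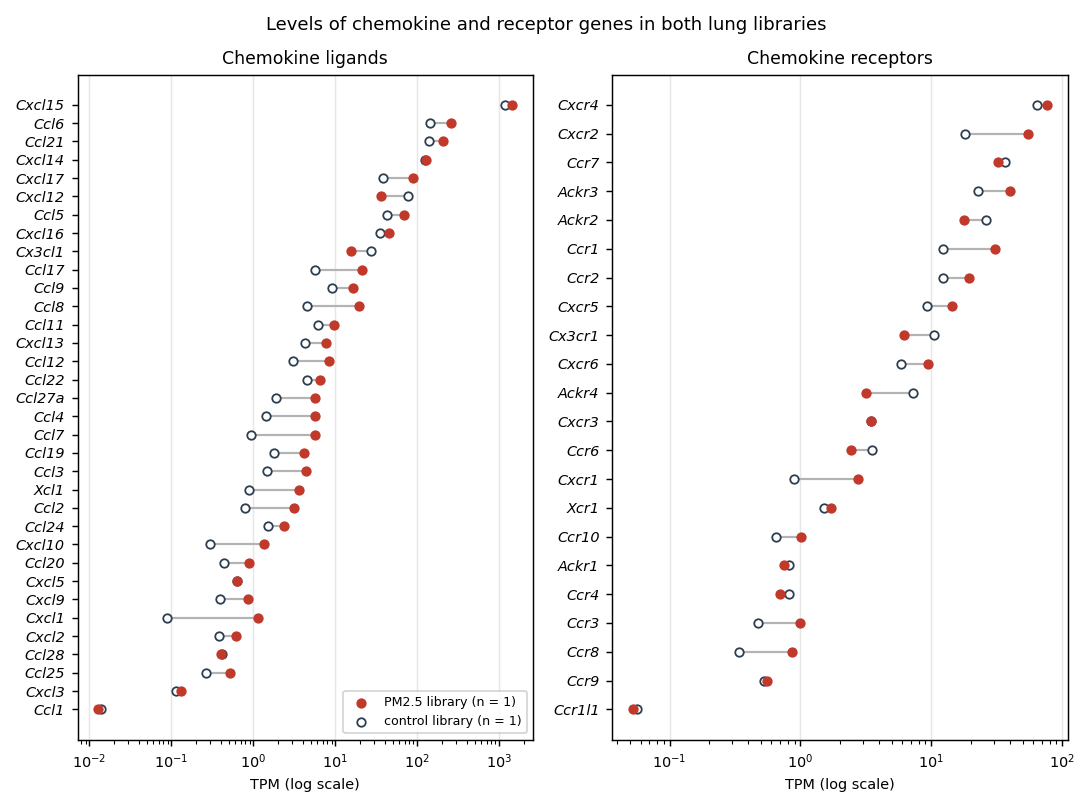
TPM (log scale) of ligands and receptors with a count, in the PM2.5 library (filled) and the control library (open), 1 library each, sorted by level. Cxcl15 stands highest among the ligands, at 1440 TPM in the PM2.5 library and 1189 TPM in the control library, and Cxcr4 among the receptors, at 76.3 TPM in the PM2.5 library and 64.1 TPM in the control library. Filled points lie to the right for most ligands and to the left for genes such as Cxcl12, Cx3cl1, Ackr2, Ackr4 and Cx3cr1.

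The ligands of the monocyte receptor Ccr2 were low in level and high in ratio. Ccl7, Ccl2 and Ccl12 had 146, 116 and 148 counts in the PM2.5 library and 23, 27 and 49 in the control library, with ratios of 5.92 (3.79 to 9.63), 4 (2.62 to 6.33) and 2.82 (2.03 to 3.97). Summed over these 3 genes the ratio was 3.86 (3.09 to 4.86). By rank among genes of their level they stood at the 93.5th percentile for Ccl7, the 88.6th for Ccl2 and the 81.5th for Ccl12, since many genes near 1 CPM had high ratios. Each was below 1 CPM in the control library.

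Ccl8, a chemokine that binds Ccr8 in mice, had 329 counts in the PM2.5 library and 70 in the control library, a ratio of 4.38 (3.38 to 5.75) at the 95th percentile of its level. It was above 1 CPM in both libraries. Ccl3 and Ccl4, macrophage inflammatory proteins that attract monocytes and T cells, had 111 counts and 122 counts in the PM2.5 library, against 34 and 29 in the control library. Their ratios were 3.04 (2.06 to 4.61) and 3.92 (2.6 to 6.1), at the 82.6th and 87.7th percentiles. Ccl5, a product of activated T and natural killer cells, was far more abundant, at 68.1 TPM in the PM2.5 library and 42.7 TPM in the control library, with a ratio of 1.61 (1.5 to 1.72).

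Most natural killer cell markers had ratios above 1, as did Ccl5 and Xcl1, but by unequal amounts. Xcl1, a chemokine of natural killer and CD8 T cells that attracts Xcr1-bearing dendritic cells, had 62 counts in the PM2.5 library and 14 in the control library, a ratio of 4.13 (2.29 to 7.98), below the level filter. The 8 natural killer markers Ncr1, Klrb1c, Klrd1, Gzma, Gzmb, Prf1, Eomes and Klra8 summed to 103 CPM in the PM2.5 library and 42.4 CPM in the control library, a ratio of 2.42, with 5 of 8 at least 2-fold higher. Their ratios ran from 0.917 for Eomes and 1.22 for Prf1 to 4.88 for Klra8. Per 100 counts of Klrd1, at a ratio of 3.52, there were 221 counts of Ccl5 in the PM2.5 library and 484 in the control library. The 10 T cell markers summed to 117 CPM in the PM2.5 library and 111 CPM in the control library, but the CD8 genes Cd8a and Cd8b1 had ratios of 1.73 and 1.5 and Cd4 one of 0.746. The part of natural killer or CD8 T cells in these values was not tested.

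Ccl6 and Ccl9, CC chemokines of mouse myeloid cells that act on Ccr1, had more counts than Ccl8, Ccl3 and Ccl4 and lower ratios than these. Ccl6, at 258 TPM in the PM2.5 library and 143 TPM in the control library, was the second most abundant ligand. Its ratio of 1.81 (1.76 to 1.86) ranked at the 98.1st percentile, the highest of the ligands that passed the filter. Beside it, the 8 alveolar macrophage markers summed to 788 CPM in the PM2.5 library and 701 CPM in the control library. Most of this was Chil3, at 475 CPM in the PM2.5 library and 415 CPM in the control library. Marco, Pparg, Ear2, Chil3 and Car4 had ratios of 3.57, 1.65, 1.3, 1.15 and 1.03. Fabp1, Krt79 and Siglecf had ratios of 0.991, 0.794 and 0.681. The part of macrophages in the value of Ccl6 was not tested. Ccl9 had the same ratio of 1.81 (1.67 to 1.97) on 1647 counts in the PM2.5 library and 847 in the control library, at the 94.2nd percentile.

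The chemokines of type 2 responses differed unequally. Ccl17, a ligand of Ccr4 made by dendritic cells, had 351 counts in the PM2.5 library and 87 in the control library, a ratio of 3.76 (2.97 to 4.81) at the 94.1st percentile. Ccl22, the other Ccr4 ligand, had a ratio of 1.44 (1.25 to 1.67) on 493 counts in the PM2.5 library and 318 in the control library. The eotaxins Ccl11 and Ccl24, which recruit eosinophils through Ccr3, had ratios of 1.56 (1.31 to 1.87) and 1.54 (1.1 to 2.16), at the 76.6th and 59.1st percentiles. Ccl26, the other eotaxin, had no count in either library.

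The ligands of lymphoid tissue differed in size of ratio. Ccl19, a Ccr7 ligand of lymphoid stroma, had 119 counts in the PM2.5 library and 47 in the control library, a ratio of 2.36 (1.67 to 3.38), with less than 1 CPM in the control library. Ccl21, the Ccr7 ligand of lymphatic vessels and lymphoid stroma, had 5786 counts over its copies in the PM2.5 library and 3673 in the control library, a ratio of 1.47 (1.41 to 1.53), at the 95th percentile. Cxcl13, the B cell attractant, had 288 counts in the PM2.5 library and 147 in the control library, a ratio of 1.83 (1.49 to 2.24).

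Lymphatic vessel markers had ratios below 1, unlike Ccl21. The 6 markers Prox1, Lyve1, Pdpn, Mmrn1, Flt4 and Reln summed to 422 CPM in the PM2.5 library and 725 CPM in the control library, a ratio of 0.583, with 3 of 6 at least 2-fold lower. Ccl20, which attracts Ccr6-bearing cells, had 41 counts in the PM2.5 library and 19 in the control library, below the filter, a ratio of 2.01 (1.14 to 3.67). Cxcl9, a further Cxcr3 ligand induced by interferon, had 86 counts in the PM2.5 library and 36 in the control library, a ratio of 2.23 (1.49 to 3.38), and lay at the edge of the filter.

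The Ccl21 copies did not behave alike. Ccl21a (chr4:42772860-42773993, minus strand) had 5601 counts in the PM2.5 library and 3673 in the control library. Ccl21b (chr4:42255767-42256432, plus strand) had 185 counts in the PM2.5 library and 0 in the control library, where a count of 0 allows up to 3, so that it was 57.5-fold higher against that floor and at least 46.3-fold with the counting error of the 185 counts. It was 1 of 3 gene identifiers in the whole data set with 0 counts in 1 library and at least 100 in the other, beside Xlr3a and Gm16867. The 4 Ccl21 identifiers on unplaced scaffolds had no count in either library. The copies are nearly identical and a counting step can split or drop their reads, so values of single copies are uncertain. RefSeq gives Ccl21 names to 3 further genes: Gm21541, Gm13304 and Gm10591, with 435, 26 and 3 counts in the PM2.5 library and 158, 32 and 0 in the control library. When they were added, a choice made with the data seen, the group's ratio was 1.51.

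Among mucosal CC ligands, Ccl27a, a Ccr10 ligand known from skin, had 442 counts in the PM2.5 library and 137 in the control library, a ratio of 3.01 (2.48 to 3.67) at the 94.1st percentile. Its near copies, Ccl27b and the Ccl27 identifiers on scaffolds, had no count. Ccl28, another Ccr10 ligand of mucosa, had 63 counts in the PM2.5 library and 61 in the control library, and its ratio of 0.963 (0.666 to 1.39) was above 1 with library totals and upper-quartile scaling. Ccl25, the Ccr9 ligand of thymus and gut, had 128 counts in the PM2.5 library and 59 in the control library, a ratio of 2.02 (1.47 to 2.8). It shares 204 exon bases with the antisense gene Elavl1, which had 3119 counts in the PM2.5 library and 3379 in the control library. Of the 6 thymus markers, Foxn1 and Ptcra were at 0 in both libraries, and the list summed to 2.14 CPM in the PM2.5 library and 0.742 CPM in the control library. Ccl1, a Ccr8 ligand, had 1 count in each library.

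**Figure D3:**
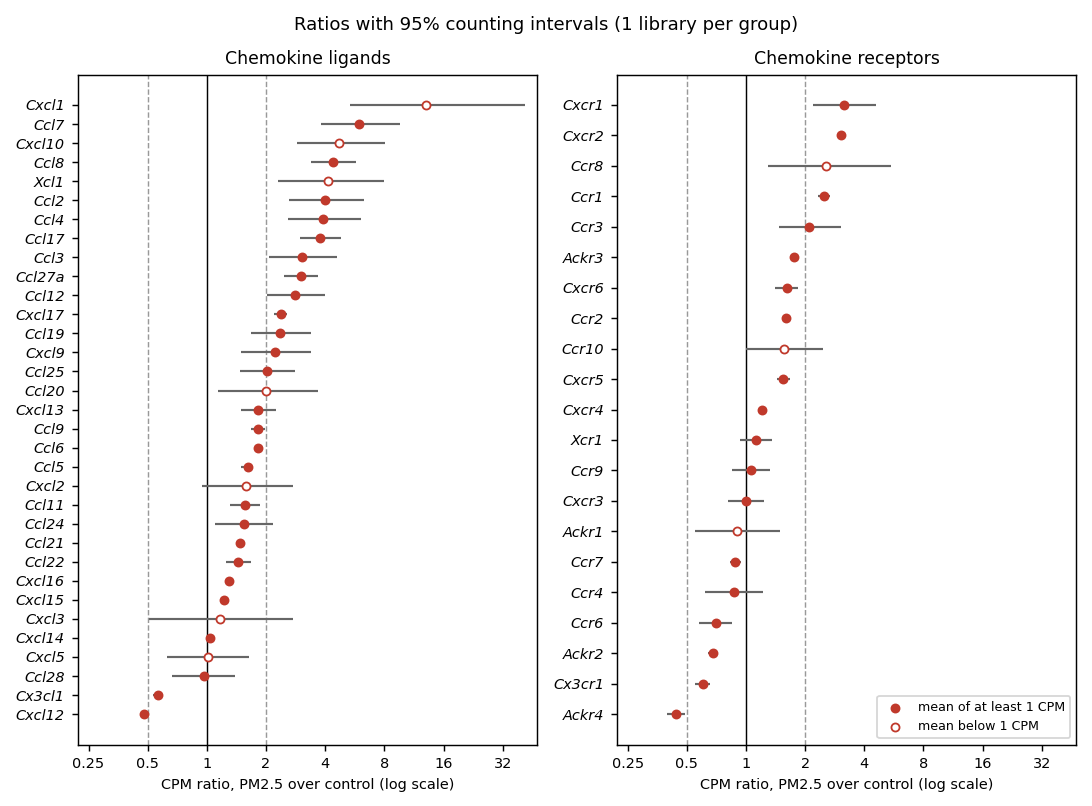
CPM ratio, PM2.5 over control (log scale), of ligands and receptors, Ccl1 and Ccr1l1 left out, with exact 95% counting intervals and 1 library per group. Filled points have a mean of at least 1 CPM and open points less, and dashed lines mark 2-fold. Ratios run to 13 for Cxcl1 and 3.15 for Cxcr1 at the top, and to 0.48 for Cxcl12 and 0.44 for Ackr4 at the bottom.

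Among the receptors, the neutrophil receptor Cxcr2, which binds Cxcl1, Cxcl2 and Cxcl5, stood out by level and ratio together. It had 5401 counts in the PM2.5 library and 1651 in the control library, a ratio of 3.05 (2.89 to 3.22), at the 99.2nd percentile, the highest rank of the family. It made 16.9% of the receptor total in TPM in the PM2.5 library and 7.49% in the control library. Cxcr1, its neighbour on chromosome 1 and a second neutrophil receptor, had 135 counts in the PM2.5 library and 40 in the control library, a ratio of 3.15 (2.2 to 4.6) at the 83.5th percentile. Ccr1, a receptor of neutrophils and monocytes for Ccl3, Ccl5, Ccl6 and Ccl9, had 2835 counts in the PM2.5 library and 1057 in the control library. The ratio of 2.5 (2.33 to 2.69) ranked at the 98.5th percentile.

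Neutrophil markers moved with these receptors. The 12 markers, S100a8, S100a9, Csf3r, Ly6g, Mmp9, Padi4, Retnlg, Mmp8, Fpr1, Trem1, Ltf and Camp, summed to 1707 CPM in the PM2.5 library and 533 CPM in the control library, a ratio of 3.2. Of the 12, 9 were at least 2-fold higher and 1, Camp, was lower. Per 100 counts of the granulocyte receptor gene Csf3r there were 27 counts of Cxcr2 in the PM2.5 library and 34.8 in the control library, and for Ccr1 14.2 in the PM2.5 library and 22.3 in the control library. The direction depends on the marker. Csf3r had the highest ratio of the 12, at 3.93. S100a8, S100a9, Ly6g, Padi4 and Ltf had ratios of 3.46, 3.43, 3.69, 3.82 and 3.42. Retnlg, Trem1, Mmp8, Mmp9, Fpr1 and Camp had ratios of 2.94, 2.3, 2.19, 1.8, 1.43 and 0.357. The part of neutrophil number in the receptor values was not tested.

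The monocyte receptors went in opposite directions. Ccr2, carried by classical monocytes, had 4267 counts in the PM2.5 library and 2495 in the control library, a ratio of 1.59 (1.52 to 1.68) at the 94.9th percentile. Cx3cr1, carried by patrolling monocytes and the receptor of Cx3cl1, had 912 counts in the PM2.5 library and 1415 in the control library, a ratio of 0.601 (0.552 to 0.653) at the 8.4th percentile. There were 3.12 Ccr2 transcripts per Cx3cr1 transcript by TPM in the PM2.5 library and 1.18 in the control library. Per 100 counts of the classical monocyte gene Ly6c2 there were 288 counts of Ccr2 in the PM2.5 library and 331 in the control library.

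Marker lists of both monocyte kinds were mixed. Among the 6 patrolling monocyte markers, Ace, which capillaries also express, and Cd300e were at least 1.5-fold lower, and Nr4a1, Treml4, Spn and Eno3 had ratios of 1.09, 0.793, 0.737 and 1.35. Among the 6 classical monocyte markers, Ly6c2, Ms4a4c, F13a1, Chil3 and Vcan had ratios of 1.83, 1.9, 1.44, 1.15 and 0.932. Fn1, which stroma also expresses, had a ratio of 0.291. The list summed to 743 CPM in the PM2.5 library and 1105 CPM in the control library. The direction of Ccr2 per classical monocyte marker therefore depends on the marker. The part of either monocyte kind in the receptor values was not tested.

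Among receptors of lymphocytes, Cxcr6 and Cxcr5 had ratios of 1.61 (1.41 to 1.85) and 1.55 (1.43 to 1.68). Cxcr6 is carried by effector T cells among others, and Cxcr5, the receptor of Cxcl13, by B cells and follicular helper T cells. Cxcr5 overlaps the antisense gene Bcl9l by 110 exon bases. Beside these, the 8 B cell markers summed to 457 CPM in the PM2.5 library and 262 CPM in the control library, and for every 100 counts of Cd79a there were 23.7 counts of Cxcr5 in the PM2.5 library and 23.9 in the control library.

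Cxcr3, the receptor of Cxcl9 and Cxcl10 on activated T and natural killer cells, had 195 counts in the PM2.5 library and 182 in the control library, a ratio of 0.999 (0.812 to 1.23) whose direction depends on the scaling. Ccr7, which guides naive T cells and mature dendritic cells, had 2086 counts in the PM2.5 library and 2201 in the control library, a ratio of 0.883 (0.832 to 0.938) that was 1.04 with library totals. Ccr6, carried by B cells and some helper T cells, had a ratio of 0.7 (0.575 to 0.851), which lay below 1 under each of the 4 other scalings as well. For every 100 counts of the T cell gene Cd3e there were 473 counts of Ccr7 in the PM2.5 library and 472 in the control library.

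Ccr4, a receptor of type 2 helper and regulatory T cells, had 71 counts in the PM2.5 library and 76 in the control library, a ratio of 0.871 (0.621 to 1.22) that was 1.02 with library totals. Ccr3, the eosinophil receptor, had 106 counts in the PM2.5 library and 47 in the control library, a ratio of 2.1 (1.48 to 3.03) at the 72.3rd percentile, and was under 1 CPM in the control library. Ccr8, another receptor of type 2 and regulatory T cells, had 33 counts in the PM2.5 library and 12 in the control library, a ratio of 2.56 (1.29 to 5.45) below the filter. Xcr1 and Ccr9 had ratios of 1.13 (0.933 to 1.36) and 1.06 (0.852 to 1.32), and Ccr9 overlaps several other genes. Ccr10 had 57 counts in the PM2.5 library and 34 in the control library, a ratio of 1.56 below the filter with an interval that only just excludes 1, and Ccr1l1 had 2 in each.

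The atypical receptors diverged. Ackr3, a scavenger of Cxcl12, had 4333 counts in the PM2.5 library and 2295 in the control library, a ratio of 1.76 (1.67 to 1.85) at the 96.6th percentile. Cxcr4, the signalling receptor of the same ligand and the most abundant receptor by TPM, had 4503 counts in the PM2.5 library and 3504 in the control library, a ratio of 1.2 (1.15 to 1.25). The ligand and its receptors therefore pointed different ways, with Cxcl12 at 0.48, and there were 0.479 Cxcl12 transcripts per Cxcr4 transcript by TPM in the PM2.5 library and 1.19 in the control library.

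Ackr4, a scavenger of Ccl19, Ccl21 and Ccl25, had the lowest ratio of the family. It had 552 counts in the PM2.5 library and 1169 in the control library, a ratio of 0.44 (0.397 to 0.487), at the 1.79th percentile. With library totals it was 0.516. Ackr4 shares 479 exon bases with the antisense gene Acad11, which had 2025 counts in the PM2.5 library and 1639 in the control library. Ackr2, which clears inflammatory CC chemokines and is known from lymphatic vessels, had 1793 counts in the PM2.5 library and 2460 in the control library, a ratio of 0.679 (0.639 to 0.722). Per 100 counts of the lymphatic gene Lyve1, there were 5.35 counts of Ackr4 in the PM2.5 library and 5.69 in the control library. The direction depends on the marker. Lyve1 had a ratio of 0.469, and Prox1, Pdpn, Mmrn1, Flt4 and Reln had ratios of 0.576, 0.872, 0.694, 0.366 and 0.449. The part of lymphatic vessels in these values was not tested. Ackr1, the chemokine receptor of venules and red blood cells, had 34 counts in the PM2.5 library and 35 in the control library, and shares 361 exon bases with Cadm3 on the same strand.

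Receptors and their ligands are set side by side here without a test of whether they go together. For Ccr1, Ccr2, Ccr3, Ccr8, Cxcr2, Cxcr5, Cxcr6 and Ccr9 the receptor and each listed ligand had a ratio above 1. Among these, the intervals of Cxcl2, Cxcl3, Cxcl5 and Ccr9 included 1. The Ccr8 ligand Ccl1, with 1 count in each library and a ratio of 0.932, was not among the listed ligands. For Ccr10, at 1.56, the ligand Ccl27a was at 3.01 and Ccl28 at 0.963, with an interval that included 1. Both members of the pair Cx3cl1 and Cx3cr1 were at least 1.5-fold lower, with ratios of 0.565 and 0.601. Cxcl12 and Cxcr4 lay on opposite sides of 1. For Ccr4, Ccr6 and Ccr7 each ligand's ratio was above 1 while the receptor's was below it, although with library totals Ccr4 was at 1.02 and Ccr7 at 1.04. For Cxcr3 and Xcr1 the ligands Cxcl9, Cxcl10 and Xcl1 were at least 2-fold higher, and the receptor intervals included 1.

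**Figure D4:**
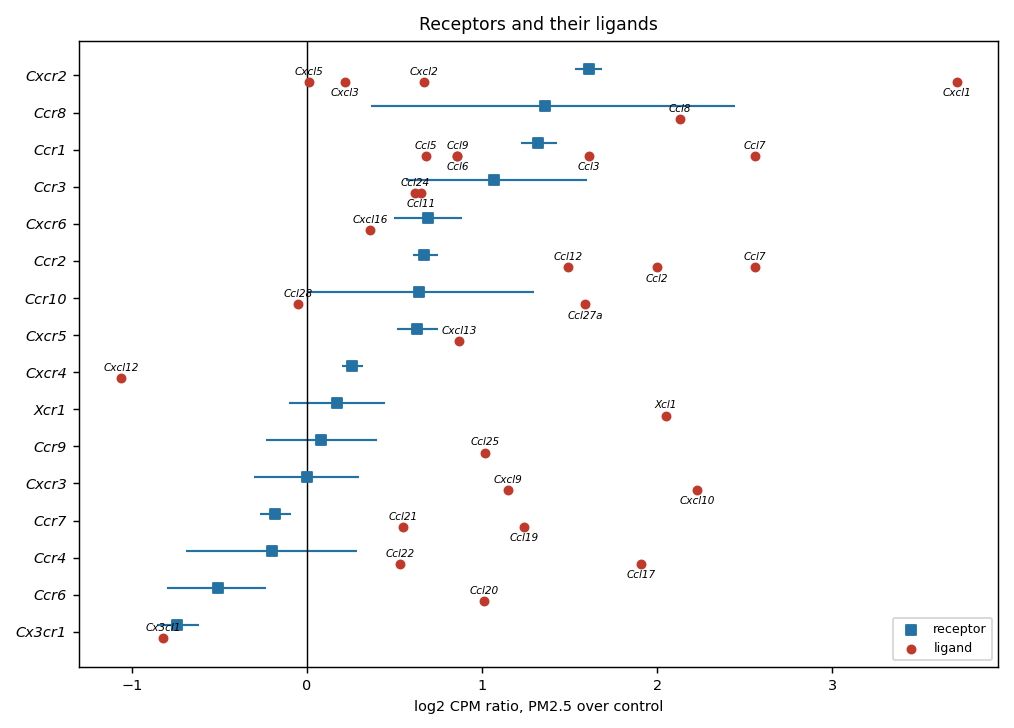
log2 CPM ratio, PM2.5 over control, of 16 receptors (squares, with 95% counting intervals) and their ligands (circles), 1 library per group, ordered by the receptor. Cxcl1 lies far to the right of Cxcr2, at 3.71 and 1.61, and Cxcl12 to the left of Cxcr4, at -1.06 and 0.26.

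Many of the genes lie in clusters. With members no more than 1 Mb apart joined, and the Ccl21 copies set aside, 30 of the 58 placed genes fell into 6 clusters of at least 3. The cluster chr11:82035571-82305690 holds Ccl2, Ccl7, Ccl11, Ccl12, Ccl8 and Ccl1, in that order. The 5 that passed the filter had ratios of 1.56 to 5.92, though Ccl2, Ccl7 and Ccl12 passed only through the PM2.5 library. Within it, Ccl11 had the lowest ratio of those 5 although it lies between Ccl7 and Ccl12. The cluster chr11:83525778-83664683 holds Ccl5, Ccl9, Ccl6, Ccl3 and Ccl4, with ratios of 1.61 to 3.92, in which the low-level genes Ccl3 and Ccl4 had the higher ratios.

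In the receptor cluster on chromosome 9, Ccr9, Cxcr6, Xcr1, Ccr1, Ccr3 and Ccr2 lie in that order, with ratios of 1.06, 1.61, 1.13, 2.5, 2.1 and 1.59, each above 1. Neighbours differed in direction in the small cluster chr8:94745590-94812036, where Ccl22, Cx3cl1 and Ccl17 lie in order, with ratios of 1.44, 0.565 and 3.76. In the cluster chr5:90759360-90905938, Cxcl1 at 13 lies between Cxcl15 at 1.22 and Cxcl2 at 1.59.

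**Figure D5:**
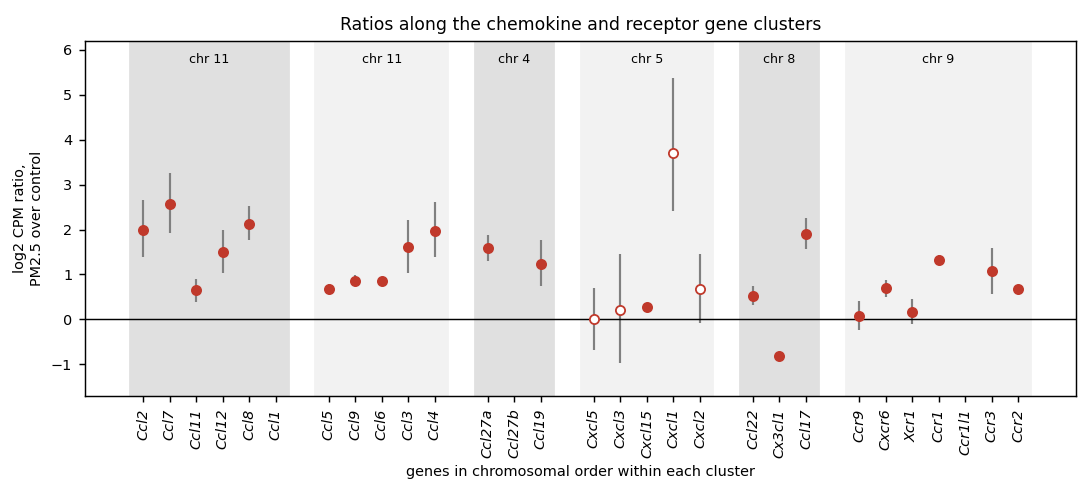
log2 CPM ratio, PM2.5 over control, with 95% counting intervals (1 library per group) for genes in chromosomal order within 6 clusters; open points have a mean below 1 CPM, and Ccl1, Ccl27b and Ccr1l1 have no point. Cxcl1, at 3.71, has the highest value, and Cxcl1 and Cx3cl1 stand apart from their neighbours.

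Other genes of chemokine signalling were described from a list of 46 genes outside the family. Of these, 45 passed the filter, with 1 at least 2-fold higher and 3 at least 2-fold lower, and with 7 and 9 at 1.5-fold, where the shares over all genes are 14.9% higher and 19.1% lower. Their median log2 ratio was -0.07. The 1 higher at 2-fold was Rgs2, a brake on G protein signalling, with 7667 counts in the PM2.5 library and 3508 in the control library. The 3 lower were Cmklr1, the receptor of chemerin, the proteoglycan gene Hspg2, and Elmo1, a link from receptors to cell movement. They had 5459, 6426 and 2294 counts in the PM2.5 library and 13144, 15942 and 4361 in the control library. Rarres2, which encodes chemerin, had a ratio of 1.71 (1.63 to 1.8), so this ligand and its receptor also pointed different ways. The platelet chemokines Pf4 and Ppbp, CXC ligands whose symbols the rule does not take, had ratios of 1.9 (1.71 to 2.1) and 0.77 (0.708 to 0.837).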

How the data were processed

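Messenger RNA from lung was sequenced as stranded libraries in paired reads of 125 bases, per the labels' protocols. The authors deposited whole-number read counts for each Ensembl gene identifier, not normalized. TopHat2 2.1.1, HTSeq 0.6.0 and mm10 are listed by the submitters' processing notes. For the annotation release and strand setting of that step, nothing is stated in the labels. Reads that no single gene can claim may have been dropped, which would lower counts of near-identical or overlapping genes. The PM2.5 table has 1 blank line.

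Symbols, coordinates and exon lengths came from GENCODE M21 on GRCm38 (mm10), and promoter windows from RefSeq, which held 44 of the 62 genes. Groups are the labelled exposures, 1 library each. TMM factors from edgeR 4.0.16 were 1.08 (PM2.5) and 0.923 (control). Each CPM ratio was given an exact Clopper-Pearson 95% interval. PCR reads are not independent molecules, so intervals and floors cover counting error only. A count of 0 was replaced by a floor of 3 counts per library (0.0482 CPM in PM2.5, 0.0517 CPM in control). Higher or lower means a difference of 2-fold or more, an interval excluding 1 and, unless stated, a mean of at least 1 CPM. TPM used summed exon lengths.

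Values are given for every family member with a mean of at least 1 CPM or an interval excluding 1. Members outside that rule, the promoters of Cxcl10 and Cxcl12, the ranks among genes of the same level and the splits by length were added after seeing the data. The members and lists were chosen with earlier results of these data known. Scaling was repeated with library totals, the upper quartile, size factors of DESeq2 1.42.0, and TMM after removal of the top 100 genes by count. Filters and fold thresholds were varied, and the deeper library was thinned. The values of 1 receptor gene are not reported here, although it is in the counts and medians. Steps were tested on simulated data. The software was R 4.3.3 and Python 3.11.15 with matplotlib 3.10.9, scipy 1.17.1, pandas 2.3.3 and numpy 2.4.6.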

Additional observations from a re-analysis of the deposited data

How the results depend on the processing

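No paired analysis was possible because there is 1 library per group, and for the same reason no replicate could be left out. Library totals raised the median log2 ratio of all genes by 0.23 and upper-quartile scaling by 0.14. With library totals the family had 0 genes at least 2-fold lower and a receptor median of 0.49; with the upper quartile 1 gene, Ackr4, was lower. At a mean of at least 10 CPM, 3 genes were higher and the ligand median was 0.46. At 1.5-fold, 27 were higher and 4 lower. With at least 1 CPM in the control library, added after seeing the data, 7 were higher and the medians were 0.65 for ligands and 0.17 for receptors. Ccl21b on its own gave a ratio of 57.5 against the floor. The other settings kept the counts within 1.5 times. Upper-quartile scaling gave medians of 1.01 for ligands and 0.40 for receptors, and library totals 1.10 for ligands, against 0.86 and 0.26 with TMM. Of 255 single-gene ratios recomputed under 5 settings, 212 stayed within their counting interval, which is widest for genes with few counts. No gene at least 2-fold higher or lower changed direction. A change of scaling moves all log2 ratios alike, here by at most 0.23, so it could not have turned such a gene. Depth limits the genes below 1 CPM, where intervals span several-fold.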
